A study of Mus musculus with 12 samples.

Results

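The 9 genes H2-K1, H2-D1, B2m, Tap1, Tap2, Tapbp, Psmb8, Psmb9 and Nlrc5 encode parts of the MHC class I presentation pathway. They were taken by symbol from the gene-level RNA counts of sorted mouse neutrophils, where they are 9 of 55335 listed genes, and all 9 passed the filter on low counts in every comparison. The 12 libraries, each from 1 mouse, were 4 of tumor-associated neutrophils (TANs) from PyMT animals, 4 of TANs from PyMT-Cxcr2-/- animals and 4 of bone marrow (BM) neutrophils from WT animals. In PyMT mice the polyoma middle T oncogene is driven in mammary tissue and gives rise to the tumors from which the TANs were sorted. PyMT-Cxcr2-/- mice carry the same transgene and lack the chemokine receptor Cxcr2 in the whole animal, not in neutrophils alone. All mice were on the FVB background, were 10 weeks old and were kept in SOPF housing. Neutrophils were enriched on CD11b and sorted as CD45+ CD11b+ Ly6G+ F4/80- cells. No neutrophils from the bone marrow of tumor-bearing mice were compared here, so the tumor site and the presence of the transgene cannot be told apart in the comparisons with BM. Tissue handling cannot be told apart from them either, as tumors were minced and enzymatically digested and marrow was spun out of the bones. PyMT-Cxcr2-/- TANs differ from WT BM neutrophils in Cxcr2 genotype as well.

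MHC class I molecules show peptides from inside the cell to CD8+ T cells. The proteasome cuts cytosolic proteins into peptides, and under interferon its standard catalytic subunits are replaced by inducible ones, among them Psmb8 and Psmb9. The transporter made of Tap1 and Tap2 carries the peptides into the endoplasmic reticulum, where tapasin (Tapbp) holds an empty class I molecule next to it. A class I molecule is a heavy chain, such as H2-K1 or H2-D1, bound to beta-2 microglobulin (B2m), and Nlrc5 is the transactivator that acts on the promoters of many of these genes. Neutrophils are known as phagocytes that also carry class I molecules.

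Of the 9 genes, 7 lie in the MHC region of chromosome 17 in the mm10 build, with B2m on chromosome 2 and Nlrc5 on chromosome 8. H2-K1 (ENSMUSG00000061232) lies at chr17:33996017-34000347 on the minus strand, and H2-D1 (ENSMUSG00000073411) at chr17:35262730-35267499 on the plus strand. Tap1 (ENSMUSG00000037321, chr17:34187553-34197225), Psmb8 (ENSMUSG00000024338, chr17:34197721-34201454) and Tap2 (ENSMUSG00000024339, chr17:34203527-34216321) follow each other on the plus strand, and Psmb9 (ENSMUSG00000096727, chr17:34181987-34187764) lies head to head with Tap1 on the minus strand. Exons of Psmb9 and Tap1 overlap by 212 bases. Tapbp (ENSMUSG00000024308) lies at chr17:33915899-33929292 and shares 149 exon bases with Zbtb22 on the same strand. B2m (ENSMUSG00000060802) lies at chr2:122147686-122153083 and Nlrc5 (ENSMUSG00000074151) at chr8:94434356-94527272, both on the plus strand. The strand setting of the counting was not given in the sources used here, so reads in overlapping exons are uncertain in their assignment. The heavy chains carry a further limit. FVB mice have another MHC haplotype than the C57BL/6 mouse of the reference genome, and class I heavy chain genes are near-identical copies of each other, so reads of H2-K1, H2-D1 and the H2-Q genes may be split between genes or lost. All 12 libraries come from FVB mice, but whether such losses were equal between groups was not tested. Reads mapped to several places, which were not counted, were 9.22% to 11.4% of a BM library, 6.07% to 8.72% in PyMT TANs and 6.20% to 7.01% in PyMT-Cxcr2-/- TANs.

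The promoters are shown for genes that share promoter elements, the heavy chains H2-K1 and H2-D1, their partner B2m, and Tap1, whose window also covers most of the Psmb9 promoter. Windows of 300 bases, from 250 before to 50 after the start, come from RefSeq on GRCm38.p6, and 7 of the 9 genes have one, all except Tap2 and Nlrc5. Capitals mark matches on either strand. The first run of capitals in H2-K1 and in H2-D1 is the kappaB site, searched in exactly these letters. The other matches are to an interferon-stimulated response element (GAAA, 2 free bases, GAAA), to its class I form (AGAA, 2 free bases, GAAA) and to the core of the CRE-like element (TGACG). Each sequence runs 5′ to 3′ on the strand of its gene. The windows are chr17:34000298-34000597 on the minus strand for H2-K1, and on the plus strand chr17:35262844-35263143 for H2-D1, chr2:122147437-122147736 for B2m and chr17:34187306-34187605 for Tap1.
H2-K1: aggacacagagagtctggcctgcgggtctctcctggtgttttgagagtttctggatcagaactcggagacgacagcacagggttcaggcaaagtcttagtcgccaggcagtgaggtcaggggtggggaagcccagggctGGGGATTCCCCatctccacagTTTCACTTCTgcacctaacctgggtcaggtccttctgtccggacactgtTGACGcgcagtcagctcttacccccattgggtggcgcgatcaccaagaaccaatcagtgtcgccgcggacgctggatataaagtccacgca
H2-D1: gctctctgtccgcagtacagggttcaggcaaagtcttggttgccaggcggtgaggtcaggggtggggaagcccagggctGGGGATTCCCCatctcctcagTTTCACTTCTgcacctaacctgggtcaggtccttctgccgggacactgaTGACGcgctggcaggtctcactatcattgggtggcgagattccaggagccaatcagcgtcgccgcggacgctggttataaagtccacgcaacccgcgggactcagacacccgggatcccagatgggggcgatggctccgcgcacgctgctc
B2m: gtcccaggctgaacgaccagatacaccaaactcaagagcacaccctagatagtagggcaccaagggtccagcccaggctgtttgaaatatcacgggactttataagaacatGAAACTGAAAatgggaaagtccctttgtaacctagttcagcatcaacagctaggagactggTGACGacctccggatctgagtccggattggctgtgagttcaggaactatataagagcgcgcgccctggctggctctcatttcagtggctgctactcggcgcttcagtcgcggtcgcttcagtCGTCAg
Tap1: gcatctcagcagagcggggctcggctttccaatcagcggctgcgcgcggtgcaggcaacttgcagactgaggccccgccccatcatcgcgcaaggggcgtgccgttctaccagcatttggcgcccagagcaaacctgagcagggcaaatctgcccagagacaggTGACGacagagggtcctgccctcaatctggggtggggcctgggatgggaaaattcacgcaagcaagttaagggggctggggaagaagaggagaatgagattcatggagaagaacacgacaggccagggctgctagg

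The H2-K1 and H2-D1 windows carried the same 3 marked elements in the same order, and were identical at 211 of 239 aligned bases (88.3%). Counted from the annotated start, the kappaB site began at position -111 in H2-K1 and at -171 in H2-D1. This exact form was present in 10 of all 32851 promoter windows (0.0304%), among them those of H2-K1, H2-D1 and H2-Q6. The response element was present in the B2m window in its general form, found in 3.44% of all windows, and in the H2-K1 and H2-D1 windows in its class I form, found in 3.02%. The TGACG core was present in 5 of the 7 windows and in 20.8% of all windows. A CCAAT box (CCAAT, left unmarked) was present in 6 of the 7 and in 37.4% of all windows. The Tap1 and Psmb9 windows overlap, and their TGACG cores are the same bases read on opposite strands, as are their CCAAT boxes. Each of these elements is therefore counted in both windows. The interferon-gamma activated site (TTC, 3 free bases, GAA), found in 8.3% of all windows, matched the Psmb8 window alone among the 7. The starts of Tap1 and Psmb9 lie 226 bases apart. A match is a string of letters in the reference genome, and not a site shown to be bound in these neutrophils.

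The libraries held between 25032704 and 51351569 counts on genes, and the lowest count of any of the 9 genes in any library was 368. Cxcr2 was at a normalised read count of 8.97 to 10.1 CPM in the PyMT-Cxcr2-/- TANs, against 1030 to 1536 in PyMT TANs and 1818 to 2250 in BM neutrophils. CPM here are read counts scaled to library size with the trimmed mean of M-values (TMM) over the 12 libraries, while fold changes come from a fit of the 2 groups compared, so that they can differ slightly from the ratio of mean CPM. Genes of other cell types moved with the tissue. The summed level of 12 macrophage markers was 262 to 363 CPM in BM neutrophils, 2272 to 5310.3 in PyMT TANs and 2505 to 5187 in PyMT-Cxcr2-/- TANs, and all 12 rose in both kinds of TANs. C1qa was at 0.600 to 2.05 CPM in BM neutrophils, 156 to 399 in PyMT TANs and 151 to 339 in PyMT-Cxcr2-/- TANs. Of 11 dendritic cell markers, MHC class II genes included, 8 rose in PyMT TANs and 9 in PyMT-Cxcr2-/- TANs, with summed levels of 1767 to 3713 and 1793 to 3221 CPM against 18.9 to 28.6 in BM neutrophils. Most of the sum in TANs came from Cd74 (means of 1420 and 1326 CPM), H2-Aa (791 and 716) and H2-Ab1 (465 and 459). Flt3, Zbtb46, Xcr1, Clec9a, Ccr7, Cd209a and Siglech averaged at most 4.95 CPM in any group. The defining genes Krt8 and Csn3 of the epithelial list were at 0 in every BM library, and the 9 genes of that list summed to 47.6 to 445 CPM in PyMT TANs and 84.1 to 313 in PyMT-Cxcr2-/- TANs. Neutrophil markers were the most abundant list, at 78881 to 104470 CPM in BM neutrophils, 11024 to 17759 in PyMT TANs and 18801 to 30911 in PyMT-Cxcr2-/- TANs, and 10 and 11 of the 12 fell in the TANs. The 12 include Cxcr2, whose fall in PyMT-Cxcr2-/- TANs is given by their genotype and is counted in the 11. Ly6g, the gene of the sorted antigen, was at 477 to 655, 20.01 to 48.4 and 106 to 183 CPM in the same order. Of 6 B cell markers, 0 were called in PyMT TANs and 1 in PyMT-Cxcr2-/- TANs. Of 9 T and NK cell markers, 3 were tested in PyMT TANs and 4 in PyMT-Cxcr2-/- TANs. In each, 1 rose and 2 fell. The 9 summed to 209.7 to 244.7 CPM in BM neutrophils, 14.96 to 28.6 in PyMT TANs and 25.2 to 45.04 in PyMT-Cxcr2-/- TANs. Cd3d alone was at 205.9 to 239.8 CPM in BM neutrophils. By the limits on p and fold given below, 30.1% of all genes tested rose and 23.2% fell in PyMT TANs. In PyMT-Cxcr2-/- TANs 34.4% rose and 25.1% fell. The 8 stromal markers summed to 11.8 to 14.9 CPM in BM neutrophils, 18.7 to 42.8 in PyMT TANs and 24.3 to 53.8 in PyMT-Cxcr2-/- TANs. In bulk RNA a change in the share of a cell type and a change in RNA per cell cannot be told apart, and the part of other cells in the results that follow was not tested.

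The order of levels, in CPM per kilobase of exon, was led by H2-D1 and B2m in all 3 groups. H2-D1 was at 1270 ± 209 CPM per kilobase (SD, n = 4) in BM neutrophils, 819 ± 106 in PyMT TANs and 1052.5 ± 130.4 in PyMT-Cxcr2-/- TANs, and B2m at 890 ± 134, 733 ± 48.1 and 678 ± 33.5. Both stood between percentile 99.8 and 99.9 of 19107 genes ranked by this measure. The libraries of H2-D1 and B2m overlapped in PyMT TANs but not in the other groups. H2-K1 was the third in every group, at 70.7 ± 22.6 in BM neutrophils, where it overlapped Tapbp, and at 186 ± 13.98 and 184 ± 18.8 in the TANs, where it did not. Tapbp, at 55.4 to 64.9 CPM per kilobase on average, was the fourth in all groups, and its libraries did not overlap those of the next gene. Tap2, Psmb9 and Tap1 followed in BM neutrophils at 23.9 ± 4.28, 17.9 ± 2.23 and 17.1 ± 3.14, with overlapping ranges. In both kinds of TANs the order of these genes was Tap1, Tap2, Psmb9, with overlap of Tap1 and Tap2 in both. Psmb8, at 5.80 to 7.46 CPM per kilobase, overlapped Nlrc5 in the TANs but not in BM neutrophils, and Nlrc5 was the lowest in every group.

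**Figure D1:**
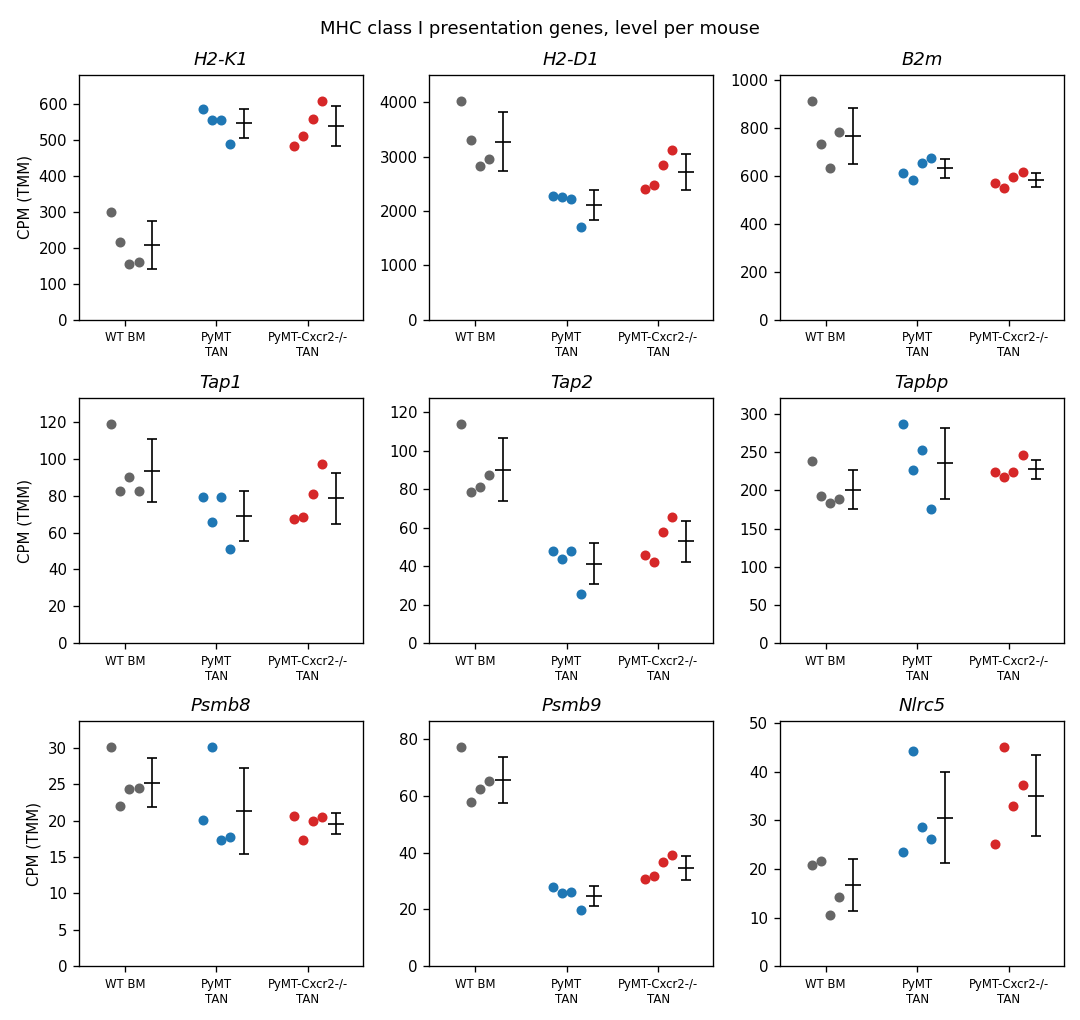
Level of each of the 9 genes in every mouse (dots), in CPM with TMM scaling on a linear axis from 0, for WT BM neutrophils (grey), PyMT TANs (blue) and PyMT-Cxcr2-/- TANs (red), with the mean and SD of the 4 mice beside them. H2-K1 and Nlrc5 lie higher in all 8 TAN libraries than in the 4 BM libraries, and Tap2 and Psmb9 lie lower in all 8.

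Among the 9 genes, H2-K1 and Nlrc5 rose and Tap2 and Psmb9 fell in PyMT TANs compared with BM neutrophils, and each of these 4 was called with the same sign in PyMT-Cxcr2-/- TANs. Calls come from edgeR's quasi-likelihood test over all genes tested, with both a limit on the p adjusted by Benjamini-Hochberg (under 0.05) and one on the fold (at least 1.5). The 4 of 9 genes called (44.4%) stand against 53.3% of the 17153 genes tested in PyMT TANs and 59.5% of 17732 in PyMT-Cxcr2-/- TANs, so that a call was no more frequent among the 9 than among all genes. The calls were 2 higher and 2 lower in each comparison, against 30.1% of all genes called higher and 23.2% called lower in PyMT TANs, and 34.4% and 25.1% in PyMT-Cxcr2-/- TANs. The median log2 fold change of the 9 genes was -0.20 in PyMT TANs and -0.15 in PyMT-Cxcr2-/- TANs, against 0.087 and 0.086 over all genes tested. Both comparisons use the same 4 BM libraries, so their values are given side by side and are not independent of each other. With library totals in place of TMM factors, an alternative chosen after seeing the data, the median of all genes moved up by 0.44 in PyMT TANs and 0.18 in PyMT-Cxcr2-/- TANs on the log2 scale, and the share of calls that were higher went from 56.4% to 72.8% in PyMT TANs. H2-K1, Nlrc5 and Psmb9 stayed called in both while Tap2 was called in PyMT TANs only.

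Of the classical heavy chains, H2-K1 was called and H2-D1 was not. H2-K1, a classical heavy chain, was at 298, 216.5, 155 and 161 CPM in the 4 BM libraries, at 586, 554, 555 and 489 CPM in PyMT TANs and at 482, 510.1, 558 and 608 CPM in PyMT-Cxcr2-/- TANs. Every TAN library was above every BM library. The increase was 2.78-fold in PyMT TANs (log2 fold change 1.48 ± 0.20 SE, adjusted p = 7.4e-05) and 2.82-fold in PyMT-Cxcr2-/- TANs (1.497 ± 0.18, adjusted p = 9.0e-06). It was between 1.31 and 1.94 on the log2 scale in PyMT TANs over 16 alternatives, and between 1.34 and 1.71 in PyMT-Cxcr2-/- TANs, and was called in all of them.

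H2-D1, the other classical heavy chain, was at 4021, 3309.6, 2822 and 2947 CPM in BM neutrophils and at 2272, 2260.1, 2216 and 1705 CPM in PyMT TANs, without overlap. It was at 2404, 2482, 2842 and 3130.02 CPM in PyMT-Cxcr2-/- TANs, where 2 libraries lay within the BM range. Compared with BM neutrophils it was -0.55 ± 0.15 on the log2 scale in PyMT TANs (adjusted p = 0.0091), a 1.47-fold difference just under the fold limit, so it was not called. It passed the limit in 12 of 16 alternatives, DESeq2 among them at -0.63 (adjusted p = 0.00035), and with library totals alone it was -0.10. In PyMT-Cxcr2-/- TANs it was -0.15 ± 0.15 (adjusted p = 0.37), and 0.031 with library totals alone.

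B2m, the light chain shared by all class I molecules, was at 911, 733, 634 and 782 CPM in BM neutrophils. It was at 612, 582, 652 and 676 CPM in PyMT TANs, where 2 libraries lay within the BM range, and at 571, 549, 595 and 616 CPM in PyMT-Cxcr2-/- TANs, all below it. The log2 fold change was -0.20 ± 0.14 (adjusted p = 0.24) and -0.27 ± 0.12 (adjusted p = 0.058), and neither was called. Its sign depended on the processing. With GC content and length of genes adjusted for, B2m was 0.49 and 0.34 and not called.

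Of the peptide transporter genes, Tap2 was called lower in both kinds of TANs and Tap1 was not called. Tap2 was at 114, 78.4, 81.1 and 87.6 CPM in BM neutrophils, at 47.6, 43.6, 48.1 and 25.4 CPM in PyMT TANs and at 45.9, 42.3, 57.8 and 65.5 CPM in PyMT-Cxcr2-/- TANs. All 8 TAN libraries were below all 4 BM libraries. Tap2 was 2.07-fold lower in PyMT TANs (log2 fold change -1.05 ± 0.20, adjusted p = 0.00099) and 1.57-fold lower in PyMT-Cxcr2-/- TANs (-0.65 ± 0.15, adjusted p = 0.0015). The latter call was close to the fold limit and was lost without replicate 1 or 2 of the PyMT-Cxcr2-/- TANs (-0.56 and -0.53), without replicate 1 of the BM neutrophils (-0.54) and with library totals alone (-0.48).

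Tap1, the partner chain, was at 119, 82.8, 90.1 and 82.5 CPM in BM neutrophils, at 79.4, 65.6, 79.5 and 51.0 CPM in PyMT TANs and at 67.2, 68.6, 81.0 and 97.4 CPM in PyMT-Cxcr2-/- TANs. The PyMT TAN libraries were all below the BM libraries, and 1 PyMT-Cxcr2-/- TAN library lay within the BM range. The log2 fold change was -0.36 ± 0.17 (adjusted p = 0.093) and -0.13 ± 0.14 (adjusted p = 0.41), so Tap1 was not called. It was 0.084 and 0.044 with library totals alone, and was called in PyMT TANs once GC content and length were adjusted for (-0.68, adjusted p = 0.0015). Tapbp, the tapasin gene, was at 239, 193, 183 and 189 CPM in BM neutrophils, at 287, 227, 253 and 176 CPM in PyMT TANs and at 224, 218, 224 and 246 CPM in PyMT-Cxcr2-/- TANs, with overlap in both comparisons. Tapbp had a log2 fold change of 0.31 ± 0.15 (adjusted p = 0.11) in PyMT TANs. In PyMT-Cxcr2-/- TANs it was 0.30 ± 0.11 (adjusted p = 0.021), a 1.23-fold difference that passed the p threshold but not the fold limit. With library totals alone it was 0.75 and called in PyMT TANs.

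Of the inducible proteasome subunits among the 9 genes, Psmb9 fell in both kinds of TANs and Psmb8 was not called. Psmb9, which is encoded head to head with Tap1, was at 76.99, 57.9, 62.4 and 65.1 CPM in BM neutrophils. It was at 28.0, 25.6, 26.0 and 19.8 CPM in PyMT TANs and at 30.5, 31.6, 36.7 and 39.2 CPM in PyMT-Cxcr2-/- TANs, so that the 3 groups did not overlap. Psmb9 was 2.50-fold lower in PyMT TANs (log2 fold change -1.32 ± 0.15, adjusted p = 1.7e-05) and 1.75-fold lower in PyMT-Cxcr2-/- TANs (-0.81 ± 0.12, adjusted p = 3.2e-05). It was called in all 16 alternatives of both comparisons, with a range of -1.52 to -0.88 for PyMT TANs and of -0.98 to -0.63 for PyMT-Cxcr2-/- TANs. The summed level of the neutrophil marker list was lowest in PyMT TANs and highest in BM neutrophils. The mean CPM of Psmb9, H2-D1, Tap1 and Tap2 had the same order. S100a8 and S100a9 were the largest members of the list in BM neutrophils, at 28295 and 35184 CPM on average. Ly6g, S100a8, S100a9, Retnlg, Mmp8, Mmp9 and Itgam had this order. Csf3r did not, at mean CPM of 3955 in BM neutrophils, 3736.5 in PyMT TANs and 4826.5 in PyMT-Cxcr2-/- TANs. Cxcr4 was at 797, 675 and 458 in that order. Cxcr2, Mpo and Elane were also lowest in PyMT-Cxcr2-/- TANs. The part of neutrophil content in the differences of Psmb9, H2-D1, Tap1 and Tap2 was not tested. Psmb8 was at 30.0, 22.1, 24.4 and 24.4 CPM in BM neutrophils, at 20.1, 30.0, 17.3 and 17.8 CPM in PyMT TANs and at 20.6, 17.4, 19.9 and 20.5 CPM in PyMT-Cxcr2-/- TANs. Psmb8 had log2 fold changes of -0.16 ± 0.20 (adjusted p = 0.51) and -0.25 ± 0.12 (adjusted p = 0.091), and it was 0.29 in PyMT TANs with library totals alone. The Psmb8 libraries of PyMT-Cxcr2-/- TANs were all below those of BM neutrophils, whereas 1 PyMT TAN library lay just under the highest BM library.

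Nlrc5, the class I transactivator, was at 20.85, 21.5, 10.51 and 14.2 CPM in BM neutrophils, at 23.5, 44.2, 28.6 and 26.1 CPM in PyMT TANs and at 25.0, 45.0, 33.1 and 37.3 CPM in PyMT-Cxcr2-/- TANs. All TAN libraries were above all BM libraries, and the coefficient of variation between mice was 23.7% to 31.8% in the 3 groups. It rose 1.93-fold in PyMT TANs (log2 fold change 0.95 ± 0.27, adjusted p = 0.0099) and 2.28-fold in PyMT-Cxcr2-/- TANs (1.19 ± 0.23, adjusted p = 0.00054), and was called in all 16 alternatives of both. Over the 9 genes, the libraries of PyMT TANs and BM neutrophils did not overlap for 6, with 2 higher and 4 lower, against 28.4% and 29.7% of all genes tested. In PyMT-Cxcr2-/- TANs the count was again 2 higher and 4 lower, against 32.5% and 33.3%. The 4 lower genes were H2-D1, Tap1, Tap2 and Psmb9 in PyMT TANs and B2m, Tap2, Psmb8 and Psmb9 in PyMT-Cxcr2-/- TANs.

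**Figure D2:**
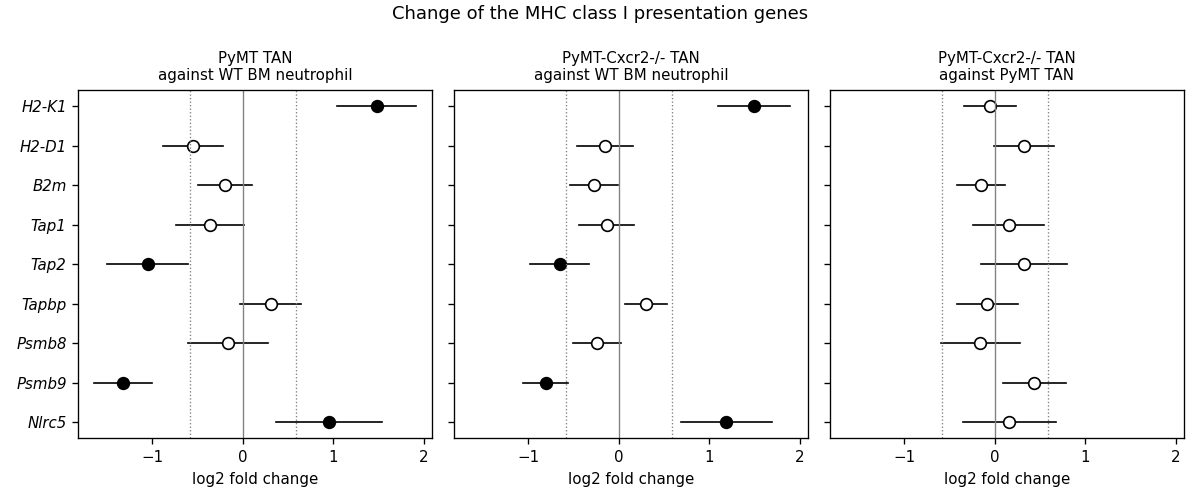
Log2 fold change of each of the 9 genes (dots) with its 95% confidence interval (lines) in the 3 comparisons, filled where the gene was called and open where it was not, with dotted lines at a fold change of 1.5 either way. H2-K1, Tap2, Psmb9 and Nlrc5 are filled in both comparisons with WT BM neutrophils, and all 9 genes are open between the 2 kinds of TANs.

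The comparison of PyMT-Cxcr2-/- with PyMT TANs asks whether these genes differ between tumor neutrophils of mice without and with Cxcr2. The authors reported heavier tumors with more neutrophils and fewer macrophages in PyMT-Cxcr2-/- mice. Loss of Cxcr2 in the neutrophils and these differences of the tumor cannot be told apart here. edgeR called 0 of the 9 genes, against 1.98% of the 18463 genes tested (1.38% higher and 0.596% lower), and DESeq2 called 0 as well. Of all calls in this comparison 69.9% were higher, and 34.5% with library totals alone. At an unadjusted p under 0.05 there was 1 of the 9, Psmb9, against 15.2% of all genes. Psmb9 was 1.36-fold higher in PyMT-Cxcr2-/- TANs (log2 fold change 0.44, 95% confidence interval 0.093 to 0.79, adjusted p = 0.20), and its 4 libraries there were all above the 4 of PyMT TANs. H2-D1 was the other gene without overlap, at 0.33 (interval -0.0051 to 0.66, adjusted p = 0.34), and Tap2 had the same value with a wider interval, from -0.15 to 0.80 (adjusted p = 0.56). These 2 of 9 genes without overlap and higher stand against 6.89% of all genes, and 0 of 9 were without overlap and lower, against 5.05%. The intervals of B2m (-0.41 to 0.12), H2-K1 (-0.34 to 0.23), Tapbp (-0.42 to 0.25) and Tap1 (-0.24 to 0.55) lie within a 1.5-fold change either way. Those of the other 5 genes reach past it, among them Psmb8 (-0.59 to 0.28) and Nlrc5 (-0.35 to 0.67). The median log2 fold change of the 9 genes was 0.16, against -0.072 over all genes.

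The inducible subunits Psmb8, Psmb9 and Psmb10 take the places of the standard subunits Psmb5, Psmb6 and Psmb7 in the proteasome, and the ratio of counts of each pair within a library does not depend on library scaling. Each ratio compares counts of genes of different length, so it is read between groups and not as a stoichiometry. The Psmb9/Psmb6 ratio was 2.73, 2.25, 2.57 and 2.28 in BM neutrophils, 1.09, 0.814, 0.709 and 0.644 in PyMT TANs and 1.11, 1.16, 1.79 and 1.71 in PyMT-Cxcr2-/- TANs. The 3 groups did not overlap, although the highest PyMT TAN library lay close to the lowest PyMT-Cxcr2-/- TAN library. The ratio was 3.07-fold lower in PyMT TANs and 1.74-fold lower in PyMT-Cxcr2-/- TANs than in BM neutrophils, and 1.77-fold higher in PyMT-Cxcr2-/- than in PyMT TANs. Each of these 3 differences had p = 0.0286 in a two-sided exact permutation test, the smallest p that 4 mice against 4 can give, and 0.0514 after adjustment over the 9 such tests, which does not pass.

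The Psmb10/Psmb7 ratio was 0.317, 0.323, 0.247 and 0.273 in BM neutrophils, 0.449, 0.618, 0.770 and 0.456 in PyMT TANs and 0.598, 0.657, 0.541 and 0.482 in PyMT-Cxcr2-/- TANs. It was 1.94-fold and 1.96-fold higher in the TANs than in BM neutrophils (exact permutation p = 0.0286 each, adjusted 0.0514), and the TANs did not differ from each other beyond their spread (p = 0.943, exact permutation test). The Psmb8/Psmb5 ratio was 4.16 to 4.70 in BM neutrophils, 2.94 to 10.46 in PyMT TANs and 3.70 to 5.49 in PyMT-Cxcr2-/- TANs, with exact permutation p of 1, 0.771 and 1. The highest value belonged to 1 PyMT TAN library, in which Psmb5 was at 2.87 CPM, against 5.02 to 6.06 in the other 3. The standard subunits themselves were not called in any comparison, and Psmb10 rose 2.36-fold in PyMT TANs (log2 fold change 1.24 ± 0.20, adjusted p = 0.00027) and 2.01-fold in PyMT-Cxcr2-/- TANs (1.004 ± 0.17, adjusted p = 0.00012).

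**Figure D3:**
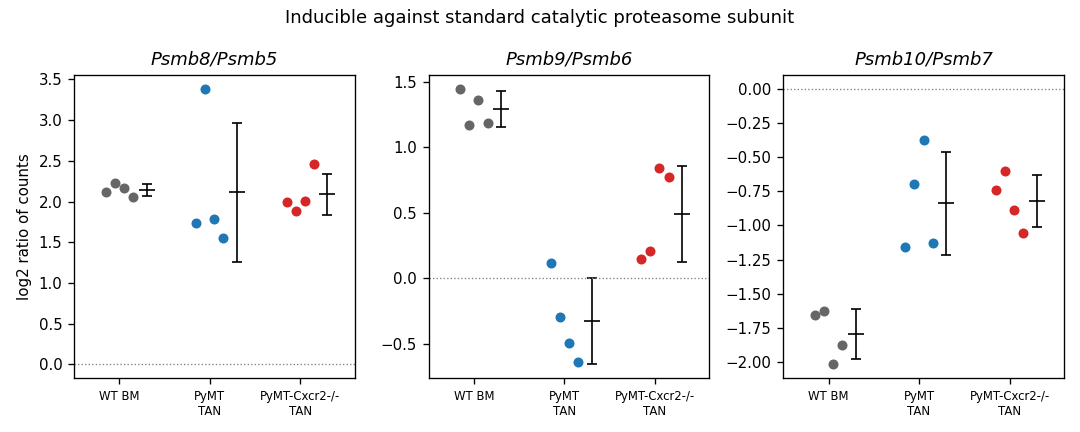
Log2 ratio of the counts of an inducible to the standard catalytic proteasome subunit in every mouse (dots), with the mean and SD of each group beside them and each panel on its own axis, for WT BM neutrophils (grey), PyMT TANs (blue) and PyMT-Cxcr2-/- TANs (red). The Psmb9/Psmb6 ratio is highest in BM neutrophils and lowest in PyMT TANs, and the Psmb10/Psmb7 ratio is higher in all TAN libraries than in BM libraries.

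Most other class I heavy chains that were tested rose in the TANs. Of 29 listed classical, non-classical and class I-like heavy chains 25 were matched, and of 18 tested in PyMT TANs 12 rose and 0 fell compared with BM neutrophils. Of 19 tested in PyMT-Cxcr2-/- TANs, 14 rose and 0 fell. Over all genes tested, 30.1% were called higher and 23.2% lower in PyMT TANs, and 34.4% and 25.1% in PyMT-Cxcr2-/- TANs, and the counts of this and the following lists are to be read against these shares. The median log2 fold change of the list was 1.30 and 1.58, against 0.087 and 0.086 over all genes. H2-Q4 was at 66.8 to 115 CPM in BM neutrophils, 135 to 169 in PyMT TANs and 155 to 202 in PyMT-Cxcr2-/- TANs, an increase of 0.97 ± 0.17 (adjusted p = 0.00050) and 1.19 ± 0.16 (adjusted p = 2.0e-05) on the log2 scale. H2-Q7, a non-classical heavy chain, rose more, by 2.93 ± 0.35 and 3.14 ± 0.30 from 1.57 to 5.36 CPM in BM neutrophils. H2-M3, which presents formylated peptides, rose by 1.21 ± 0.33 and 1.58 ± 0.24. Mr1, which presents vitamin B metabolites to MAIT cells, rose by 3.98 ± 0.65 and 3.96 ± 0.47 from under 0.36 CPM in any BM library. Its level stayed low, at 1.42 to 4.95 CPM in PyMT TANs and 1.37 to 4.96 in PyMT-Cxcr2-/- TANs. Mr1 was highest in replicates 3 and 4 of PyMT TANs and 1 and 2 of PyMT-Cxcr2-/- TANs. These libraries also had the highest epithelial marker sums (321 and 445, and 245 and 313 CPM). The part of epithelial cells in the Mr1 difference was not tested. H2-T23, which gives the Qa-1 molecule, was at 31.4 to 34.2 CPM in BM neutrophils, 26.7 to 34.3 in PyMT TANs and 31.0 to 37.8 in PyMT-Cxcr2-/- TANs and was not called (-0.0046, adjusted p = 0.98, and 0.22, adjusted p = 0.058). H2-M2 had no count in any BM library and was at least 18.5-fold higher in PyMT-Cxcr2-/- TANs, taking 3 counts per BM library as the floor. The limit on read assignment between heavy chain genes holds for the H2-Q genes as for H2-K1. Not all members of the list are heavy chains of antigen presentation, as Fcgrt is the receptor of IgG and Hfe a regulator of iron uptake, and both are among the called genes.

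In the endoplasmic reticulum, 5 of 10 genes for peptide loading and trimming rose in each kind of TAN and 0 fell, against 30.1% and 34.4% of all genes called higher, which for 10 genes is not far apart. The list median was 0.70 and 0.57 on the log2 scale, against 0.087 and 0.086 over all genes. The 5 were Calr, Canx, Pdia3, Hspa5 and Erap1, chaperones that also serve general protein folding and, in Erap1, the peptidase that trims peptides to class I length. Calr was at 73.9 to 93.2 CPM in BM neutrophils, 164 to 239 in PyMT TANs and 147 to 233 in PyMT-Cxcr2-/- TANs, an increase of 1.47 ± 0.15 (adjusted p = 1.1e-05) and 1.36 ± 0.14 (adjusted p = 2.0e-06). Canx rose by 1.92 ± 0.16 and 1.501 ± 0.17, Erap1 by 1.49 ± 0.19 and 1.01 ± 0.16, and Pdia3 by 0.82 ± 0.17 and 0.76 ± 0.15. Tapbpl, a tapasin-related editor of peptides, was at 0.57 ± 0.25 (adjusted p = 0.071) and 0.20 ± 0.14 (adjusted p = 0.21) and was not called.

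Few genes of the proteasome were called. Of 6 genes for inducible subunits and activators, Psmb10 alone was called, in both comparisons, with list medians of -0.089 and 0.026. The activator genes Psme1 and Psme2 were at -0.43 ± 0.14 (adjusted p = 0.020) and -0.13 ± 0.15 (adjusted p = 0.49) in PyMT TANs, and at -0.25 ± 0.10 (adjusted p = 0.041) and -0.17 ± 0.10 (adjusted p = 0.14) in PyMT-Cxcr2-/- TANs, all under the fold limit. The 3 standard catalytic subunits were not called in edgeR's test, with adjusted p between 0.11 and 0.998. Of 11 other subunits of the 20S core 1 rose and 2 fell in PyMT TANs and 0 rose and 3 fell in PyMT-Cxcr2-/- TANs, with medians of -0.25 and -0.31. Of 6 cytosolic peptidases, which cut peptides further, 3 rose and 0 fell in each, namely Lap3, Tpp2 and Thop1.

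Among 24 genes of interferon signalling and class I transcription, 22 were tested, of which 6 rose and 5 fell in PyMT TANs and 8 rose and 5 fell in PyMT-Cxcr2-/- TANs, with medians of 0.28 and 0.32. These counts are close to the shares of all genes called higher (30.1% and 34.4%) and lower (23.2% and 25.1%). Irf8, a transcription factor of myeloid cells, was at 2.63 to 4.22 CPM in BM neutrophils, 31.5 to 72.4 in PyMT TANs and 34.9 to 72.7 in PyMT-Cxcr2-/- TANs, an increase of 3.86 ± 0.30 and 4.12 ± 0.25 on the log2 scale. Macrophages and dendritic cells also express Irf8, and their marker lists moved in the same direction, the dendritic sum mostly through Cd74, H2-Aa and H2-Ab1. The part of these cells in the Irf8 difference was not tested. Irf1 was at 126 to 187 CPM in BM neutrophils, 169 to 255 in PyMT TANs and 153 to 259 in PyMT-Cxcr2-/- TANs, and its log2 fold changes of 0.45 ± 0.16 (adjusted p = 0.029) and 0.45 ± 0.16 (adjusted p = 0.025) were under the fold limit. Of 5 negative regulators of surface class I, 3 were tested in PyMT TANs with 0 higher and 1 lower (Tmem127), and 4 in PyMT-Cxcr2-/- TANs with 2 higher (Susd6 and March9) and 0 lower.

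**Figure D4:**
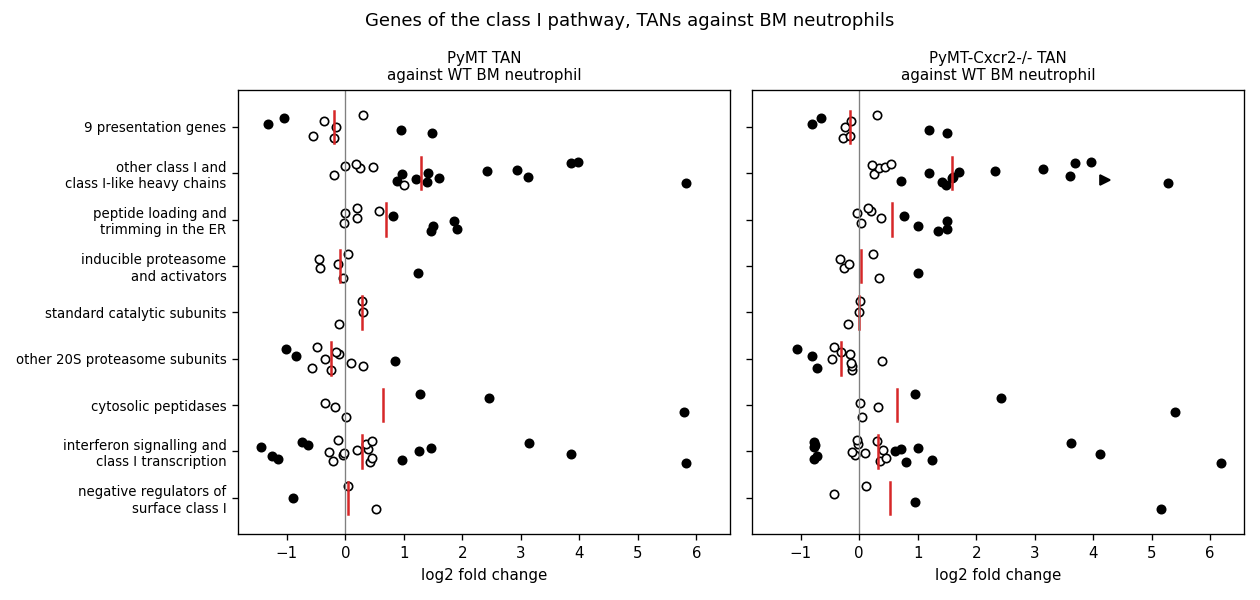
Log2 fold change of every tested gene (dots) of 9 lists of the class I pathway in TANs against WT BM neutrophils, filled where called and open where not, with the median of each list in red and a triangle for H2-M2 at its lower bound of 4.21. The other class I heavy chains have medians of 1.30 and 1.58, while the lists of the 9 genes and of the proteasome lie around 0.

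Between the 2 kinds of TANs, 1 of the 22 genes tested in the interferon list was called, and 0 in each other pathway list. Over all genes tested in this comparison 1.98% were called, and 0.596% were called lower. Jak2, a kinase of the interferon-gamma receptor and of many cytokine receptors, was at 472, 323, 402 and 428 CPM in PyMT TANs, at 239, 214, 277 and 281 CPM in PyMT-Cxcr2-/- TANs and at 162 to 186 CPM in BM neutrophils, without overlap of the 3 groups. It was 1.65-fold lower in PyMT-Cxcr2-/- than in PyMT TANs (log2 fold change -0.72 ± 0.15, adjusted p = 0.036). The size was similar without any 1 of the 8 TAN libraries (-0.81 to -0.60), but the adjusted p was then 0.062 to 0.11, so the call was lost with each of them left out. It was also lost with RLE factors (adjusted p = 0.067), with GC content and length adjusted for (0.13) and with the replicate block (0.16). In the same comparison 5 neutrophil markers rose, Ly6g among them by 1.81 ± 0.27 (adjusted p = 0.011), and the part of this in the Jak2 difference was not tested.

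The genes with the pattern most like H2-K1 and most like Nlrc5 were sought among 11091 genes, by the Euclidean distance of log2 CPM centred on its mean over the 12 libraries. For H2-K1 they were H2-Q1 (distance 0.456), Oas1a (0.541), Csf2rb2 (0.681), Pik3ap1 (0.691) and Ctnnb1 (0.740). H2-Q1, another class I heavy chain, was at 4.37 ± 1.19 CPM (SD, n = 4) in BM neutrophils, 12.5 ± 2.05 in PyMT TANs and 12.2 ± 1.52 in PyMT-Cxcr2-/- TANs. Reads of H2-K1 and the H2-Q genes may be split between genes, and the part of this in the likeness was not tested. Oas1a, an interferon-induced oligoadenylate synthetase, was at 8.68 ± 1.53, 24.05 ± 3.02 and 24.3 ± 3.73 CPM in the same order. For Nlrc5 they included Man2a2 (0.901), Usp11 (0.995), Sowahc (1.01) and Crtc1 (1.04), of which Man2a2, a mannosidase of glycan processing, was at 35.6 ± 6.83, 58.2 ± 14.4 and 66.7 ± 6.47 CPM. The distances are a description over libraries that share groups, and the genes named for Nlrc5 lie farther from it than those named for H2-K1 lie from H2-K1.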

How the data were processed

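Libraries of sorted neutrophils from 12 mice, 4 per group, were used. Per the labels and methods, the authors removed ribosomal RNA, made directional paired-end libraries, and used STAR with mm10 after trimming. HTSeq gave the deposited values, which are whole read counts per gene without normalization. FastQC and HTSeq are named in the submitters' processing notes, with no version. The annotation release and strand setting were not given in the sources used here. Symbols of 55154 of the 55335 listed genes were found in the GENCODE M21 annotation. Reads assigned to no gene (32.0% to 52.5% of a library), to several genes (1.92% to 2.92%) or to several places (6.07% to 11.4%) stayed out of library totals.

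Each comparison was fitted on its 2 groups with edgeR 4.0.16 in R 4.3.3, with TMM factors, default filterByExpr and the robust quasi-likelihood test. P-values were adjusted by Benjamini-Hochberg over all genes tested, and calls also needed a 1.5-fold difference. Standard errors were derived from the F statistic. Log2 CPM for distances had a prior count of 2. Count ratios were compared by two-sided exact permutation tests (scipy 1.17.1). By rule, the text names with values the 9 genes, a set of proteasome, loading, heavy chain and interferon genes (Psmb10, Psmb5, Psmb6, Psmb7, Psme1, Psme2, Erap1, Calr, Canx, Pdia3, Tapbpl, H2-T23, H2-M3, H2-Q4, H2-Q7, Mr1, Irf1, Irf8), Cxcr2, pathway genes called between the TANs, and the 5 genes nearest to H2-K1 and to Nlrc5. Others were named after their values were seen. Results for 2 genes that the rule would name are not reported here. The 9 genes and all lists were chosen with earlier results of these data known. Alternatives were RLE factors, no filter on low counts, all 12 libraries in one fit, a replicate block, DESeq2 1.42.0, adjustment for GC content and length, that adjustment with the block, leaving out each library, and library totals alone. The fits were also run on simulated counts, in which far fewer genes were changed than were called in the comparisons with BM. That simulation therefore does not test normalization where many genes differ. P-values measure the spread between these mice.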

Additional observations from a re-analysis of the deposited data

Results flagged for a closer look

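Of 36 group values checked for a single library far from the other 3, 2 were marked, and chance alone marks about 1 in 20. In PyMT TANs, H2-D1 was at 1705.06 CPM in replicate 4, the lowest, against 2215.51 to 2271.95 CPM in the other 3. In the same group the log2 ratio of Psmb8 to Psmb5 counts was 3.39 in replicate 2, the highest, against 1.56 to 1.78 in the other 3.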

How the results depend on the processing

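The count of called genes among the 9 stayed within 1.5 times its value, or at 0, in all 3 comparisons under every alternative run. H2-K1, Psmb9 and Nlrc5 were called in all 16 alternatives of both comparisons with BM. Deviations of same-numbered libraries correlated at -0.21 to 0.087, and those of differently numbered libraries at -0.34 to 0.32. These values cannot decide whether the replicate numbers pair the mice, as the labels give the numbers alone. With the replicate block, calls over all genes between the TANs went from 255 higher and 110 lower to 4 and 9, and with GC content and length adjusted for as well to 3 and 5. They were 151 and 64 with that adjustment alone, 206 and 391 with library totals alone, 579 and 307 with 12 libraries in one fit, 471 and 123 without the filter and 683 and 351 with DESeq2.

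Values that follow are log2 fold changes or log2 count ratios, and the cause was not tested. With library totals alone the sign changed for B2m (0.26), Tap1 (0.0840), Psmb8 (0.29), Psmb5 (0.33), Psme1 (0.0186), Psme2 (0.32) and H2-T23 (0.44) in PyMT TANs against BM, and H2-D1 (0.0308), Tap1 (0.0443), Psmb5 (0.00604), Psmb6 (0.19) and Psme2 (0.0112) in PyMT-Cxcr2-/- TANs against BM, and Tap1 (-0.0385), Nlrc5 (-0.0313), Psme1 (-0.0808), H2-T23 (-0.0344), H2-Q4 (-0.0423) and H2-Q7 (-0.0642) between the TANs. With GC content and length adjusted for the sign changed for B2m (0.49), Psmb5 (0.33) and Psme2 (0.0381) in PyMT TANs against BM, and B2m (0.34), Psmb5 (0.0854) and Psmb6 (0.0984) in PyMT-Cxcr2-/- TANs against BM, and Mr1 (0.0318) between the TANs. With that adjustment and the replicate block the sign changed for B2m (0.48), Psmb5 (0.27) and Psme2 (0.0138) in PyMT TANs against BM, and B2m (0.38), Psmb5 (0.0795) and Psmb6 (0.0878) in PyMT-Cxcr2-/- TANs against BM, and Mr1 (0.0978) between the TANs. With RLE factors the sign changed for Psmb6 (0.00199) in PyMT-Cxcr2-/- TANs against BM, and H2-K1 (0.00163) between the TANs. Without the filter the sign changed for Psmb6 (0.00494) in PyMT-Cxcr2-/- TANs against BM, and H2-K1 (0.00458) between the TANs. With 12 libraries in one fit the sign changed for Psmb7 (-0.12) in PyMT-Cxcr2-/- TANs against BM. With DESeq2 the sign changed for H2-K1 (0.00429) between the TANs. With the replicate block alone the sign changed for Mr1 (0.0134) between the TANs. Leaving out 1 library changed the sign of Psmb5 (-0.25 to 0.0701), H2-T23 (-0.0870 to 0.0405) and Psmb8/Psmb5 (-0.45 to 0.16) in PyMT TANs against BM, and of Psmb6 (-0.0525 to 0.11), Psmb7 (-0.0223 to 0.0742) and Psmb8/Psmb5 (-0.18 to 0.0111) in PyMT-Cxcr2-/- TANs against BM, and of H2-K1 (-0.0974 to 0.0190), Tapbp (-0.19 to 0.0589), Psmb8 (-0.23 to 0.0625), Psmb5 (-0.33 to 0.00523), Psme2 (-0.16 to 0.0189), Mr1 (-0.41 to 0.20), Irf1 (-0.21 to 0.0942), Psmb8/Psmb5 (-0.21 to 0.40) and Psmb10/Psmb7 (-0.0879 to 0.17) between the TANs. With 1 library left out, the count ratios can give no p below 0.0571, so these tests say nothing about stability. Depth did not limit the 9 genes, each with at least 368 counts in every library. The number of mice, read assignment between heavy chain genes and overlapping exons limit these values, and other cells in the sort were not measured apart.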
